A study of Mus musculus with 16 samples.

Results

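The serpins are a family of protease inhibitors that share one fold, and the liver is the source of most of those found in plasma. In the deposited gene table of this mouse liver RNAseq experiment, 69 rows had a symbol made of Serpin, a clade letter from a to i and a digit. The family described here is 67 of those rows, out of 47719 genes with counts. Serpina1b and Serpina1d, which are listed at 0 in some libraries, were left out. By their labels 60 of the 67 are protein coding and 7 are pseudogenes of some type. Clade A holds 27 of them and clade B 29, and clades C, D, E, F, G, H and I hold 1, 1, 3, 2, 1, 1 and 2. Serpinb10 appears under 2 identifiers, so that the 67 rows carry 66 symbols.

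The livers came from wild type C57BL/6 males of 2 ages, called 1 month and 6 months here, although the label of the younger ones reads 3 to 4 weeks. At each age 2 libraries are of untreated controls, 3 of livers taken 2 days after an intraperitoneal injection of diethylnitrosamine (DEN) and 3 of livers taken on day 6. DEN is a nitrosamine that hepatocytes activate into an agent that alkylates DNA, and the labels give the dose as 25 mg/kg body weight. RNA of 3 mice was pooled in equal amounts for every library, so the spread between libraries is one between pools. No control is labelled as taken on day 2 or day 6, and time itself cannot be told apart from DEN. The comparisons ask how the liver's transcripts differ between the ages and after DNA damage.

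A serpin inhibits by bait. The protease cuts an exposed loop, the serpin snaps into a more stable form, and both stay bound in a complex that receptors then clear. Alpha-1 antitrypsin, the product of the Serpina1 genes, protects tissue from neutrophil elastase, and antithrombin, heparin cofactor II, antiplasmin and C1 inhibitor restrain clotting, fibrinolysis and complement. Some members have lost inhibition and carry hormones or fold collagen instead, and most members of clade B stay inside cells. Mice have several copies of Serpina1 and a large expansion of Serpina3 where humans have a single gene of each.

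Total counts per library were 19039330 to 34459774 (median 26125036.5), and the members took 2.27% to 3.96% of them. Levels are given as CPM, the usual count measure relative to library size, with library sizes scaled by the TMM method. Of the 67 members 16 had no count in any library, 14 of them in clade B, and a further 19 had too few counts to test, the highest being 13 counts and 0.499 CPM. The other 32 were tested, 18 of clade A, 5 of clade B and 9 of the remaining clades. Hepatocyte markers such as Ttr (4041 to 8081 CPM) and Apoa1 (4665 to 10924 CPM) were high in every library. Among the 1-month libraries, control replicate 2, day 2 replicate 3 and day 6 replicate 2 stood apart. They had the lowest levels of the clock gene Dbp, at 1.87, 0.871 and 0.376 CPM against 6.24 to 128 CPM in the other 13, and the highest of Arntl, at 31.0, 35.2 and 37.8 CPM against 0.805 to 22.4 CPM. Their mitochondrial share of counts was 2.39%, 3.52% and 2.18% against 3.82% to 5.28%. Several results of members are given with and without these 3 low-Dbp libraries, whereas the lists of other genes are given only with them.

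Levels of different genes were set side by side as CPM per kb of the longest principal transcript. Serpina3k, a contrapsin-like inhibitor, led with a mean of 5765 CPM per kb, followed by the alpha-1 antitrypsin genes Serpina1e (3951), Serpina1c (1473) and Serpina1a (1094). C1 inhibitor, Serping1, had 562 CPM per kb, antithrombin, Serpinc1, 462, antiplasmin, Serpinf2, 429, pigment epithelium-derived factor, Serpinf1, 339, and heparin cofactor II, Serpind1, 331 CPM per kb. Over the 16 libraries the ranges of neighbours in this order overlapped from Serpina3k down to Serpina1a. They also overlapped from Serping1 through Serpina3n (308) down to Serpina12. These ranges do not compare genes within the same library. Serpina1c, for one, was above Serpina1a in every library, with transcripts of 1361 and 1360 bases. After Serpina3n in the order of means came Serpina3m (201), Serpina6 (180.4), Serpina4-ps1 (80.7), Serpina10 (75.6), Serpina11 (61.3), Serpina7 (47.0) and Serpina12 (13.2). Clade B was far lower, led by Serpinb6a at 10.9 and Serpinb9 at 4.17 CPM per kb. Clade A made up 75.1% to 85.1% of the summed CPM of the family in every library, and clade B 0.0782% to 0.235%. Neuroserpin, Serpini1, was near the limit of detection with 5 to 25 counts per library.

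**Figure D1:**
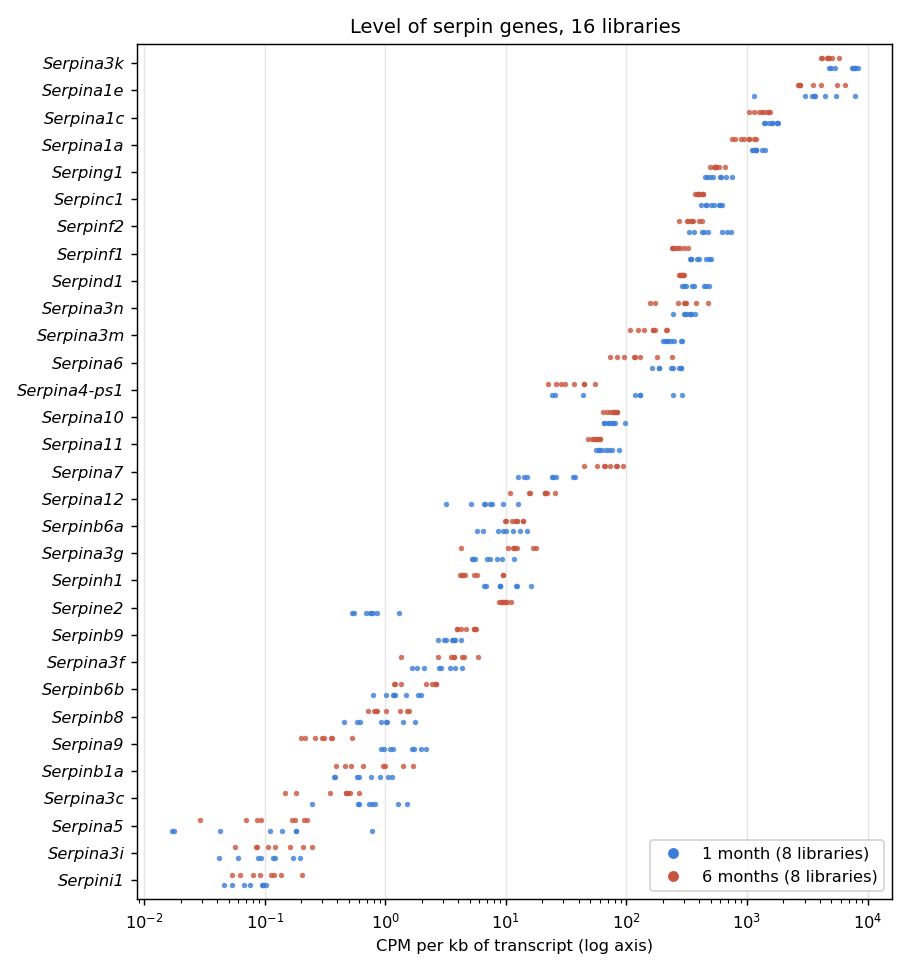
Level of 31 of the 32 tested serpin genes (horizontal axis, CPM per kb of transcript, log axis), with 1 point for each library, blue at 1 month and red at 6 months. The genes span from Serpina3k at a mean of 5765 down to Serpini1 at 0.0928 CPM per kb, and the points of both ages lie apart for Serpine2, Serpina7, Serpina9 and Serpinf1.

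Serpina1a, Serpina1c and Serpina1e are close copies on chromosome 12 of GRCm38. Their coding sequences were identical at 98.5% (1a and 1c), 96.5% (1a and 1e) and 96.4% (1c and 1e) of aligned bases, so the authors' counting could have moved reads from one to another. Just upstream of their starts they are as close. The lines below show, from RefSeq on GRCm38.p6 and all on the minus strand, the same window of 193 bases of each, with the 12 positions where the copies differ in capitals, because only Serpina3k had a higher level than these copies. The windows are at chr12:103863620-103863812 (1a), chr12:103904957-103905149 (1c) and chr12:103956955-103957147 (1e).
Serpina1a: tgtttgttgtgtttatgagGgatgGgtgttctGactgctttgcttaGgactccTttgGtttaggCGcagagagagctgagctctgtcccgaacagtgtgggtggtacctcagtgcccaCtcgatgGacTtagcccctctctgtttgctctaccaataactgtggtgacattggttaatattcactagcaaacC
Serpina1c: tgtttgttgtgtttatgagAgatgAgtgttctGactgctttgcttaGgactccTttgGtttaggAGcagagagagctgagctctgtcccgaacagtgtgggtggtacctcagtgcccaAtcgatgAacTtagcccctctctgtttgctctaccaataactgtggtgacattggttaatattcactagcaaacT
Serpina1e: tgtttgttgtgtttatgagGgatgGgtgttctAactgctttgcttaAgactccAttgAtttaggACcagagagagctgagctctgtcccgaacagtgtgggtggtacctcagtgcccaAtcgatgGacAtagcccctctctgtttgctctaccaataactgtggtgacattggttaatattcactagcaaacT
In this window 1a and 1c differ at 6 positions, and 1e differs from each of them at 9. Levels of 1a and 1c were steady, from 1019 to 1917 CPM and from 1413 to 2447 CPM (highest over lowest 1.88 and 1.73), while 1e ran from 1808 CPM in 1-month day 2 replicate 2 to 12326 CPM in 1-month day 6 replicate 2. Serpina1b and Serpina1d were listed at 0 in 6 libraries, which were 1-month control replicate 2, day 2 replicate 3 and day 6 replicates 2 and 3, and 6-month control replicate 2 and day 6 replicate 3. In those 6 libraries Serpina1e was at 4814 to 12326 CPM (median 7088), against 1808 to 8728 CPM (median 4990) in the other 10. Serpina1a had medians of 1628 and 1463 CPM and Serpina1c of 2195 and 1984 CPM in the same order, with overlapping ranges in each case. The part that reads of Serpina1b and Serpina1d had in the counts of the other copies was not tested.

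More serpins passed in each comparison of the ages than in any comparison after DEN, and the mean age comparison drew on all 16 libraries. In the mean of the age differences in controls, at day 2 and at day 6, 6 of the 32 tested members were higher and 13 were lower at 6 months at an adjusted p under 0.1 by edgeR's quasi-likelihood test, where 12.1% and 10.5% of all 15684 genes tested were (22.6% in either direction). Without the 3 low-Dbp libraries 13 members passed in place of 19, of which 12 were among the 19. In controls alone 3 members were higher and 4 lower, where 1.61% and 1.06% of all genes were (2.67% in either direction). At day 2 they were 3 and 2 (all genes 3.27% and 2.63%, together 5.9%), and at day 6 they were 4 and 5 (all genes 2.61% and 1.86%, together 4.47%). Serpine2, Serpina7, Serpina9 and Serpina12 passed in each of these 3 comparisons. The median log2 fold change over the members was -0.04 in the mean comparison, beside -0.01 over all genes tested. In 2 members all 8 libraries at 6 months were above all 8 at 1 month (1.97% of all genes), and in 2 all were below (1.71%). Only relative levels are measured, and in whole liver fewer cells of a type and less RNA per cell cannot be told apart.

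**Figure D2:**
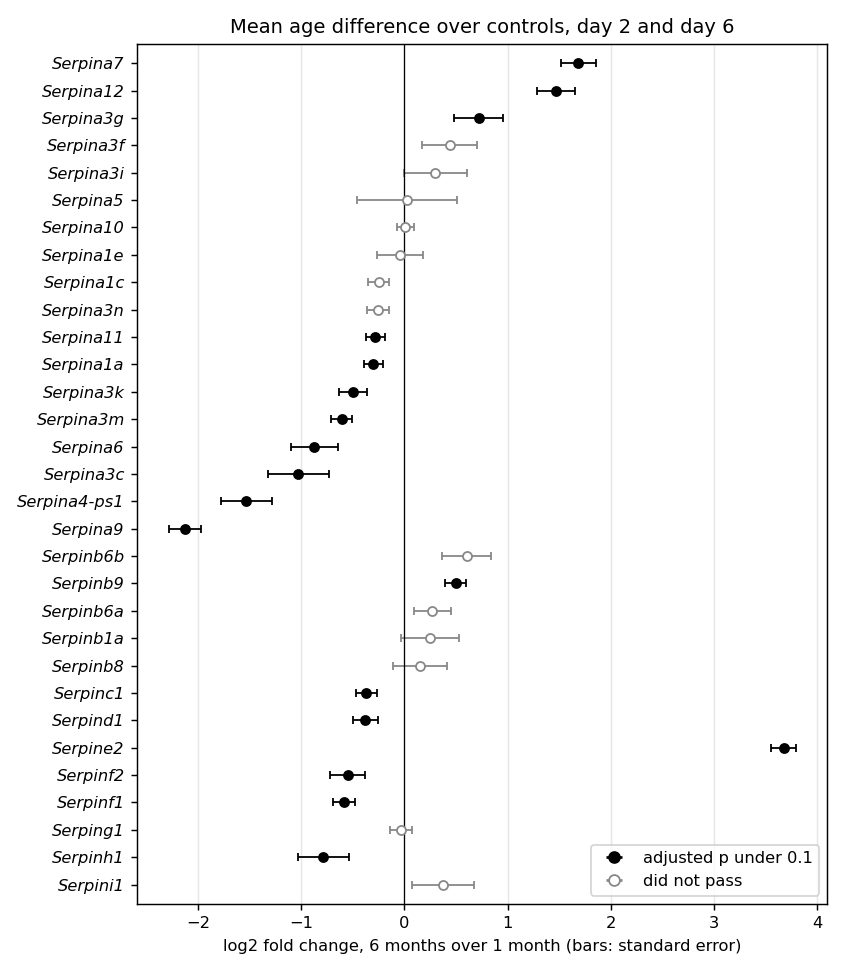
Log2 fold change of 6 months over 1 month, the mean of the differences in controls, at day 2 and at day 6 (horizontal axis, bars show the standard error), for 31 of the 32 tested serpins grouped by clade from A at the top to I. Filled points passed at an adjusted p under 0.1, 5 to the right of 0 and 13 to the left, and Serpine2 lies farthest to the right at 3.67.

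Serpine2, which encodes protease nexin-1, an inhibitor of thrombin and urokinase that stays close to the cell surface, had the widest difference of the family. Its levels at 1 month were 1.53 and 1.67 CPM in controls, 1.66, 1.20 and 1.18 CPM at day 2 and 2.88, 1.88 and 1.73 CPM at day 6. At 6 months they were 20.0 and 20.8, then 21.6, 22.7 and 20.5, then 24.5, 19.3 and 21.8 CPM. The ages did not overlap, the lowest library at 6 months being at 19.3 CPM and the highest at 1 month at 2.88 CPM. Raw counts were 27 to 60 per library at 1 month and 382 to 808 at 6 months. The mean log2 fold change was 3.67 (standard error, here SE, 0.122, adjusted p = 2.66e-10, edgeR's quasi-likelihood test), which is 12.8-fold, and it was 3.67, 4.01 and 3.35 in controls, at day 2 and at day 6. It passed under every alternative run, with log2 fold changes of 3.63 to 3.75. Serpine2 (ENSMUSG00000026249) lies on chromosome 1 of GRCm38 from 79794197 to 79861180. The 250 bases before its RefSeq start (chr1:79858666-79858915, GRCm38.p6, minus strand) are shown because no other member moved as far, with the GC box letters GGGCGG in capitals.
Serpine2: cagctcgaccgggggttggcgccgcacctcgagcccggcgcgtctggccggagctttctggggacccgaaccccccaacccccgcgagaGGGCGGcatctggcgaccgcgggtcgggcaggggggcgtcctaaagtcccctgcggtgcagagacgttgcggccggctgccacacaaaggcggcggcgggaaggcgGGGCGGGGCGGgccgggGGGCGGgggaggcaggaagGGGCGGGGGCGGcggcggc
The stretch has 78.8% G and C and holds GGGCGG 6 times, with the first 161 bases and the last 13 bases before the start. On either strand, GGGCGG is found in 32.7% of the 32851 promoter windows of the same length in the RefSeq table.

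The hormone carriers of clade A went in opposite directions. Serpina7 (ENSMUSG00000031271, X chromosome of GRCm38 from 139079257 to 139085236) encodes thyroxine-binding globulin, which carries thyroid hormone and inhibits no protease. Levels at 1 month were 32.7 and 34.8 CPM in controls, 55.8, 84.1 and 87.1 CPM at day 2 and 29.6, 60.1 and 56.9 CPM at day 6. At 6 months they were 193 and 103, then 219.6, 170.3 and 189.6, then 151, 153 and 133 CPM, each above every library at 1 month. The log2 fold change was 2.13 in controls, 1.35 at day 2 and 1.58 at day 6, with a mean of 1.69 (SE 0.170, adjusted p = 1.80e-05, edgeR's quasi-likelihood test), and it passed under every alternative run. The window before its RefSeq start (chrX:139085237-139085486, GRCm38.p6, minus strand) is poor in G and C (36%). Capitals mark GTTAAT, part of the binding site of the hepatocyte factor HNF1, and the TATA box letters TATAAA.
Serpina7: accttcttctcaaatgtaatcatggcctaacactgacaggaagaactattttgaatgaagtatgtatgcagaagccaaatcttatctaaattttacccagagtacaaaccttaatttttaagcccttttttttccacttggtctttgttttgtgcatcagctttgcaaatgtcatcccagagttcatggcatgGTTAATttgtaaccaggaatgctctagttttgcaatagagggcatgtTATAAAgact
GTTAAT lies 57 bases and TATAAA 10 bases before the start, and on either strand they are found in 6.43% and 12.4% of all windows.

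Serpina6, which encodes corticosteroid-binding globulin, the plasma carrier of glucocorticoids, was lower at 6 months. Its levels ranged from 264 to 458 CPM (median 384) at 1 month and from 117 to 382 CPM (median 187) at 6 months, and 6-month day 2 replicate 1 and day 6 replicate 1 were the libraries of their age inside the younger range. The mean log2 fold change was -0.87 (SE 0.229, adjusted p = 0.0184, edgeR's quasi-likelihood test). No single age comparison passed in this fit (adjusted p of 0.343 in controls, 0.167 at day 2 and 0.486 at day 6). Among the alternatives, the day 2 difference passed with a replicate block (adjusted p = 0.0557), with DESeq2 (0.0786) and with no filter on low counts (0.0108). The difference in controls passed with no filter (0.0497). Serpina6 was below the other 1-month libraries in the 3 low-Dbp libraries, and without these the mean difference was wider, at -1.08 (adjusted p = 0.0214).

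Serpina12 encodes vaspin, a kallikrein inhibitor first known as an adipokine. At 1 month its levels were 24.5 and 24.1 CPM in controls, 27.2, 11.7 and 18.8 CPM at day 2 and 46.7, 28.4 and 35.2 CPM at day 6. At 6 months they were 94.8 and 77.7, then 39.9, 77.1 and 57.6, then 58.8, 81.0 and 78.2 CPM. One library of each age reached into the range of the other, 6-month day 2 replicate 1 and 1-month day 6 replicate 1. The mean log2 fold change was 1.47 (SE 0.181, adjusted p = 0.000115, edgeR's quasi-likelihood test). In controls alone it was 1.83, and the call was lost without either control at 1 month (0.107 and 0.177), without 6-month control replicate 1 (0.140) and without the 3 low-Dbp libraries (0.191), with log2 fold changes of 1.68 to 1.84 in these fits. At day 6 alone it was 0.98 with an adjusted p of 0.0968, and 13 of 22 alternatives lost that call. Serpina12 (ENSMUSG00000041567) lies on chromosome 12 from 104028769 to 104044443. The 250 bases before it (chr12:104044444-104044693, GRCm38.p6, minus strand) are shown beside those of Serpina7 because both genes rose, and the capitals mark a GC box on the opposite strand.
Serpina12: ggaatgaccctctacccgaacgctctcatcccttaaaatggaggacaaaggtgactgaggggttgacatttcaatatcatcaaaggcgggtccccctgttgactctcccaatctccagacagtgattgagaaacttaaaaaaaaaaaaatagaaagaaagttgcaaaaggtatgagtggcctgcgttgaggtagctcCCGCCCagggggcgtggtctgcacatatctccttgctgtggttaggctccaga
The windows of Serpine2, Serpina7 and Serpina12, the 3 members with the smallest p among those that rose, share none of the motifs searched except the GC box of Serpine2 and Serpina12.

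Serpina9 (ENSMUSG00000058260), the neighbour of Serpina12 on chromosome 12 (103994743 to 104013755), is known as centerin from germinal centre B cells. Its levels at 1 month were 4.14 and 5.91 CPM in controls, 3.31, 3.50 and 3.92 CPM at day 2 and 7.77, 6.99 and 6.17 CPM at day 6. At 6 months they were 0.934 and 1.88, then 1.06, 0.710 and 0.763, then 1.11, 1.26 and 1.29 CPM, all below the lowest library at 1 month. Raw counts were 72 to 186 at 1 month and 17 to 66 at 6 months. Serpina9 fell by 2.12 on the log2 scale (SE 0.157, adjusted p = 1.00e-06, edgeR's quasi-likelihood test), a 4.36-fold difference. It passed in controls, at day 2 and at day 6 with log2 fold changes of -1.80, -2.07 and -2.51. In controls the call was lost without the 3 low-Dbp libraries (adjusted p = 0.124) and in a fit of the controls only (adjusted p = 0.197). Lymphocyte markers moved the other way. Their summed level was 2.35 to 4.49 CPM at 1 month and 4.93 to 10.7 CPM at 6 months. Of 5 tested 3 were higher and none lower, beside 12.1% and 10.5% of all genes. The part of such cells in Serpina9 was not tested.

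Serpina4-ps1 (ENSMUSG00000092075, chromosome 12 from 104080649 to 104086724) is the mouse pseudogene of kallistatin, a kallikrein inhibitor. At 1 month its levels were 168 and 373 CPM in controls, 56.3, 30.9 and 32.9 CPM at day 2 and 168, 312 and 151 CPM at day 6. The 6-month libraries held 37.1 and 46.8, then 28.6, 39.6 and 57.5, then 70.5, 57.5 and 33.2 CPM. The ages were apart in controls and at day 6 but shared one range at day 2. The log2 fold change was accordingly -2.69 in controls (adjusted p = 0.0158), 0.07 at day 2 (adjusted p = 0.943) and -1.97 at day 6 (adjusted p = 0.0202) by edgeR's quasi-likelihood test. In controls the call was lost without control replicate 2 at 1 month (adjusted p = 0.157), without either control at 6 months (0.170 and 0.103) and in a fit of the controls only (0.106). The 1-month control replicate 2 and day 6 replicate 2, which are low-Dbp libraries, held its highest values. Without the 3 low-Dbp libraries the mean log2 fold change was -1.21 in place of -1.53, and it passed. Serpina3c, a rare transcript at 0.327 to 3.36 CPM, had a mean log2 fold change of -1.03 (SE 0.295, adjusted p = 0.0290, edgeR's quasi-likelihood test).

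**Figure D3:**
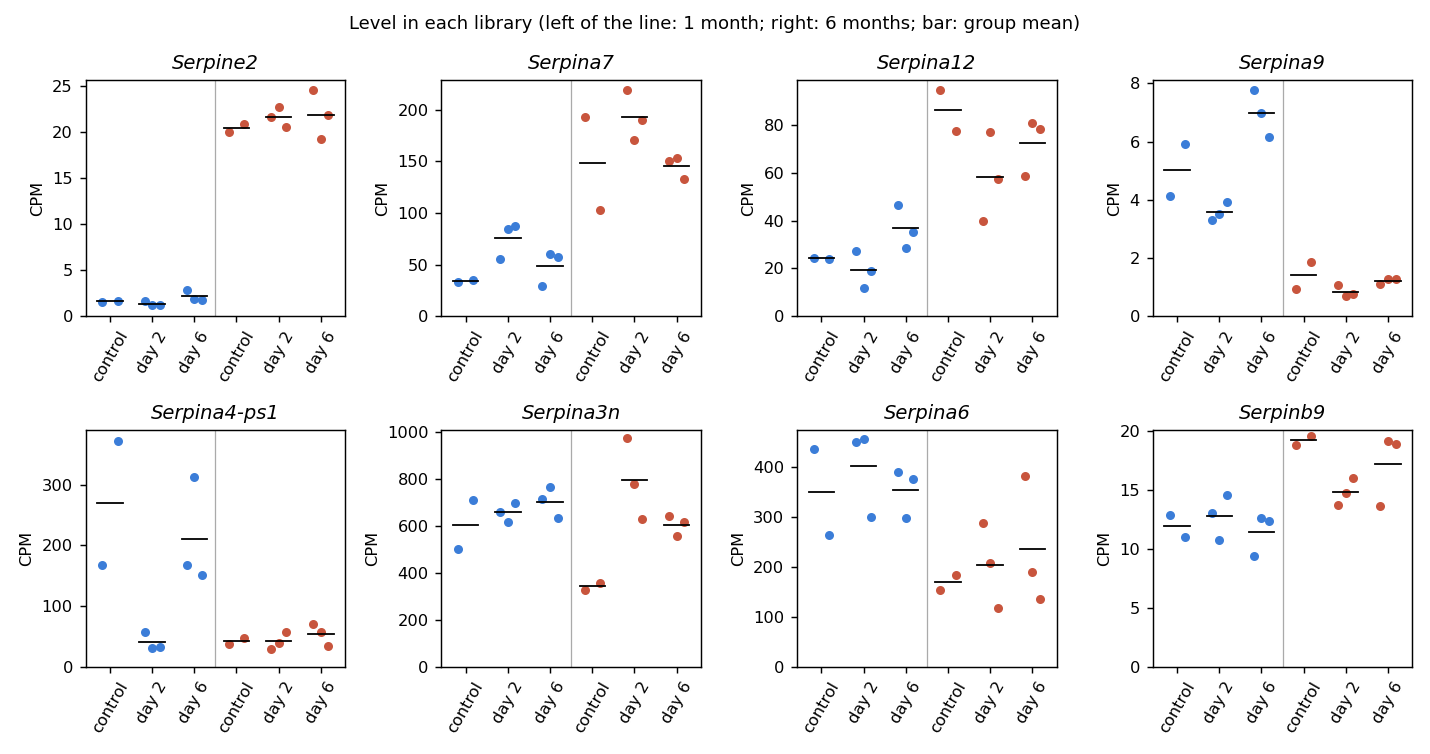
CPM of 8 serpins in each library (vertical axes from 0), with control, day 2 and day 6 at 1 month in blue left of the line and at 6 months in red right of it, and bars at the group means. Serpine2 and Serpina7 lie higher in every 6-month library and Serpina9 lower, Serpina4-ps1 dips at day 2 at 1 month (30.9 to 56.3 CPM), and Serpina3n is lowest in the 6-month controls (327 and 357 CPM).

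Among the plasma inhibitors described here, Serpina3k, Serpina3m, Serpina1a, Serpinc1, Serpind1, Serpinf1 and Serpinf2 were lower at 6 months, while Serpina1c, Serpina1e, Serpina3n, Serpina5, Serpina10 and Serping1 did not pass in the mean comparison. The calls of Serpina1a, Serpinc1, Serpind1 and Serpinf2 were lost without the 3 low-Dbp libraries. Serpina3k ranged from 9797 to 17191 CPM (median 15410) at 1 month and from 8380 to 11820 CPM (median 9700) at 6 months, a mean log2 fold change of -0.50 (SE 0.133, adjusted p = 0.0204, edgeR's quasi-likelihood test). Antithrombin, Serpinc1, ranged from 2077 to 3105 CPM (median 2583) and from 1850 to 2160 CPM (median 1965), with only the lowest 1-month library, day 6 replicate 1, inside the older range. Its mean log2 fold change was -0.37 (adjusted p = 0.0233). Antiplasmin, Serpinf2, had a log2 fold change of -0.55 (adjusted p = 0.0436) and heparin cofactor II, Serpind1, of -0.38 (adjusted p = 0.0459), by the same test. Serpina1a fell by 0.30 on the log2 scale (adjusted p = 0.0399). The libraries with Serpina1b and Serpina1d at 0 include the 3 low-Dbp libraries, and more of them are of 1 month than of 6 months. The part of this in the Serpina1a difference was not tested. For Serpina1c the log2 fold change was -0.25 (SE 0.104, adjusted p = 0.124) and for Serpina1e -0.04 (SE 0.226, adjusted p = 0.925), neither of which passed. In the same comparison DESeq2 called Serpina1c (adjusted p = 0.0651) and Serpina3n (log2 fold change -0.26, adjusted p = 0.0633) as lower.

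Serpinf1 was lower in each 6-month library than in any younger one. Pigment epithelium-derived factor, its product, inhibits angiogenesis and no protease. It was at 612 to 924 CPM (median 719.9) at 1 month and 440.1 to 599 CPM (median 482) at 6 months, so the ages did not overlap, although the gap between 599 and 612 CPM was small. The mean log2 fold change was -0.58 (SE 0.104, adjusted p = 0.00189, edgeR's quasi-likelihood test), and it was -0.42 and passed without the 3 low-Dbp libraries. Serpina3m, a relative of Serpina3k, had a log2 fold change of -0.61 (SE 0.102, adjusted p = 0.00129), with 332 to 483 CPM at 1 month and 179 to 359.9 CPM at 6 months. The annotated span of Serpina3m covers the whole of Serpina3k, and their coding sequences were identical at 92.0% of aligned bases, so that reads of one could be counted for the other. Serping1, the C1 inhibitor, did not pass, with medians of 989.8 and 963 CPM and a log2 fold change of -0.03 (SE 0.108, adjusted p = 0.888). Serpina10, the protein Z-dependent inhibitor of factor Xa, did not pass either (log2 fold change 0.01, SE 0.0796). Serpina5, the protein C inhibitor, had 1 to 35 counts per library, too few to detect any but a wide difference (SE 0.486).

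The 3 low-Dbp libraries held the highest 1-month values of many of these genes. In 9 of the 32 members all 3 were above the other 5 libraries at 1 month, where 11.2% of all genes tested showed this, and in 4 members all 3 were below (8.51%). The 9 were Serpina1a, Serpina3k, Serpinc1, Serpind1, Serpinf1, Serpinf2, Serpinh1 and, outside the naming rule and named after their values were seen, Serpina11 and Serpinb6b. Serpinf2 in these libraries was at 1.61, 1.55 and 1.82 times the mean of the rest of its own group (control, day 2 and day 6), and Serpind1 at 1.53, 1.47 and 1.37 times. Without them the age differences of the secreted members among the 9 were smaller, whereas that of Serpinb6b went from 0.61 (adjusted p = 0.101) to 0.93 (adjusted p = 0.0339) and passed. Serpinc1 went to -0.23 (adjusted p = 0.129), Serpind1 to -0.14 (adjusted p = 0.267), Serpinf2 to -0.23 (adjusted p = 0.264) and Serpina1a to -0.23 (adjusted p = 0.166), none of which passed by the same test, whereas Serpina3k went to -0.27 and still passed (adjusted p = 0.0868). Of the 6 hepatocyte markers, Apoa1, Apob and Cps1 were higher in all 3 of these libraries than in the other 5 at 1 month, and Ttr, Tat and Hnf4a overlapped. The summed level of the 6 was 36254 to 37457 CPM in the 3 libraries and 23740 to 31740 CPM in the other 5. Leaving out 1-month control replicate 2 alone ended the calls of Serpind1 (adjusted p = 0.176), Serpinf2 (0.153) and Serpina1a (0.113), and so did leaving out 6-month control replicate 1 (0.108, 0.116 and 0.1075). Serpind1 also lost its call without 6-month control replicate 2 (0.105). The part of clock time, or of whatever else set these libraries apart, in the age differences was not tested.

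**Figure D4:**
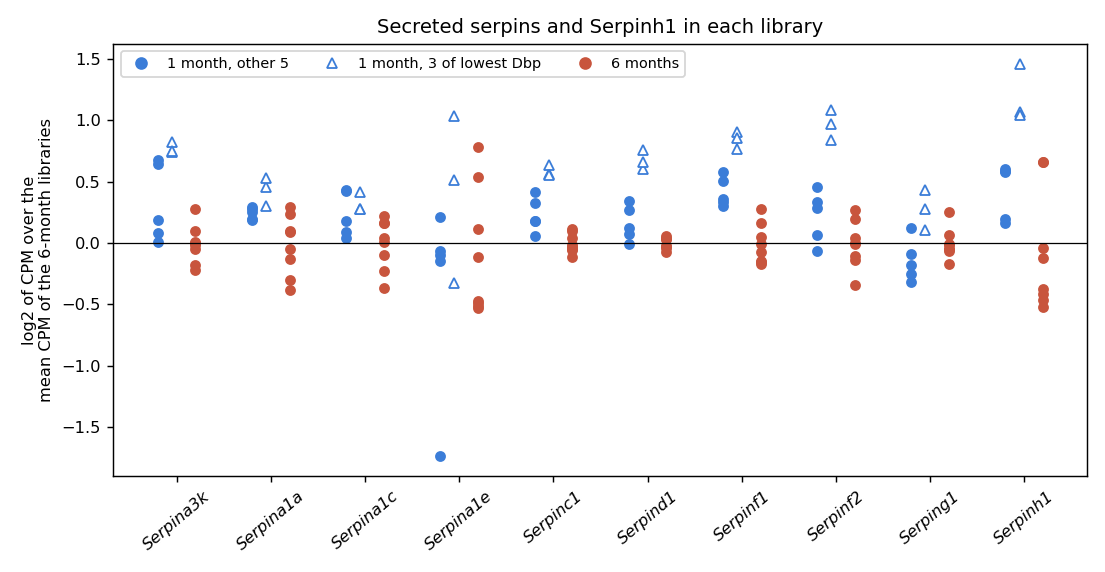
Level of 9 secreted serpins and of Serpinh1 in each library, as the log2 of CPM over the mean CPM of the 6-month libraries (vertical axis). Open triangles are the 3 low-Dbp libraries at 1 month, which lie above the 5 other 1-month libraries (blue circles) for Serpina3k, Serpina1a, Serpinc1, Serpind1, Serpinf1, Serpinf2 and Serpinh1, and red circles are the 6-month libraries.

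The intracellular serpins of clade B were low, and 1 of the 5 tested passed, beside 22.6% of all genes. A further one, Serpinb6b (1.71 to 4.36 CPM at 1 month, 2.59 to 5.78 CPM at 6 months), named after its values were seen, passed with DESeq2 (adjusted p = 0.0618), with no filter on low counts (0.0246) and with a replicate block (0.0413), as it did without the 3 low-Dbp libraries. Serpinb9, which shields cells from granzyme B, was at 9.40 to 14.6 CPM (median 12.5) at 1 month and 13.7 to 19.6 CPM (median 17.4) at 6 months. Only the highest 1-month library, day 2 replicate 3, reached the older range. Its mean log2 fold change was 0.50 (SE 0.102, adjusted p = 0.00469, edgeR's quasi-likelihood test), and it passed under all 21 alternatives run. Gzmb, the protease it inhibits, was itself scarce and rose, from 0.131 to 0.948 CPM at 1 month to 0.626 to 2.70 CPM at 6 months (log2 fold change 1.60, adjusted p = 0.00887). Nkg7, a marker of cytotoxic lymphocytes, went from 0.392 to 1.22 CPM to 1.29 to 4.82 CPM (log2 fold change 2.15, adjusted p = 0.000124). The part of such cells in the level of Serpinb9 was not tested. Serpinb6a, an inhibitor of trypsin-like proteases in the cytosol, did not pass (log2 fold change 0.27, SE 0.180). Serpinb1a, which inhibits neutrophil elastase inside cells, did not pass (log2 fold change 0.24, SE 0.281), and neutrophil markers summed to only 2.25 to 7.17 CPM.

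Serpinh1 encodes HSP47, the chaperone that holds procollagen in the endoplasmic reticulum and inhibits no protease. Its levels at 1 month were 20.1 and 28.2 CPM in controls, 15.1, 20.4 and 37.0 CPM at day 2 and 15.4, 27.8 and 20.2 CPM at day 6. At 6 months they were 13.1 and 12.4, then 9.76, 10.4 and 21.3, then 9.36, 10.1 and 21.3 CPM. The 2 high values at 6 months were in day 2 replicate 3 and day 6 replicate 3, whose Dbp, at 6.24 and 14.3 CPM, was the lowest of that age. Serpinh1 fell by 0.79 on the log2 scale (SE 0.247, adjusted p = 0.0431, edgeR's quasi-likelihood test), and without the 3 low-Dbp libraries the value was -0.47 and did not pass (adjusted p = 0.231). It was also lost without 1-month control replicate 2 (0.117) and without 6-month control replicate 2 (0.108). Its collagen partners were lower as well. Of 12 tested, 8 were lower and none higher at 6 months, beside 10.5% and 12.1% of all genes tested. Among them were Col1a1 (14.1 to 42.5 CPM at 1 month, 5.03 to 11.1 CPM at 6 months, log2 fold change -1.89), Col3a1 (-1.73), Col1a2 (-1.61) and Col4a2 (-1.27). Col1a1 was at 42.2, 42.5 and 34.6 CPM in the 3 low-Dbp libraries and at 14.1 to 33.9 CPM in the other 1-month libraries. The list was counted only with the low-Dbp libraries. The median of the list was -1.19, beside -0.01 over all genes tested. Mesothelial markers were also high in the low-Dbp libraries, with Msln at 18.3, 15.1 and 11.7 CPM against 2.48 to 4.96 CPM in the other 1-month libraries, and both tested markers were lower at 6 months. Their part in Serpinh1 was not tested.

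Of the 67 members, 26 lie in one cluster of clade A genes on chromosome 12 of GRCm38, from 103614786 to 104414329, a span of 799.5 kb. Among the 17 of them that were tested, 2 were higher, 8 were lower and 7 did not pass, beside 12.1% and 10.5% of all genes tested, and some neighbours differed in direction. Serpina9 at -2.12, Serpina12 at 1.47 and Serpina4-ps1 at -1.53 follow each other with gaps of 15.01 and 36.21 kb. Serpina10, which did not pass at 0.01 (SE 0.0796), lies 15.2 kb from Serpina6, which passed at -0.87. In the Serpina3 block Serpina3g had a log2 fold change of 0.72 (adjusted p = 0.0524), a call that 6 of 21 alternatives lost, and lay between Serpina3f (0.44) and Serpina3i (0.30), neither of which passed. These 3 were named after their values were seen.

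**Figure D5:**
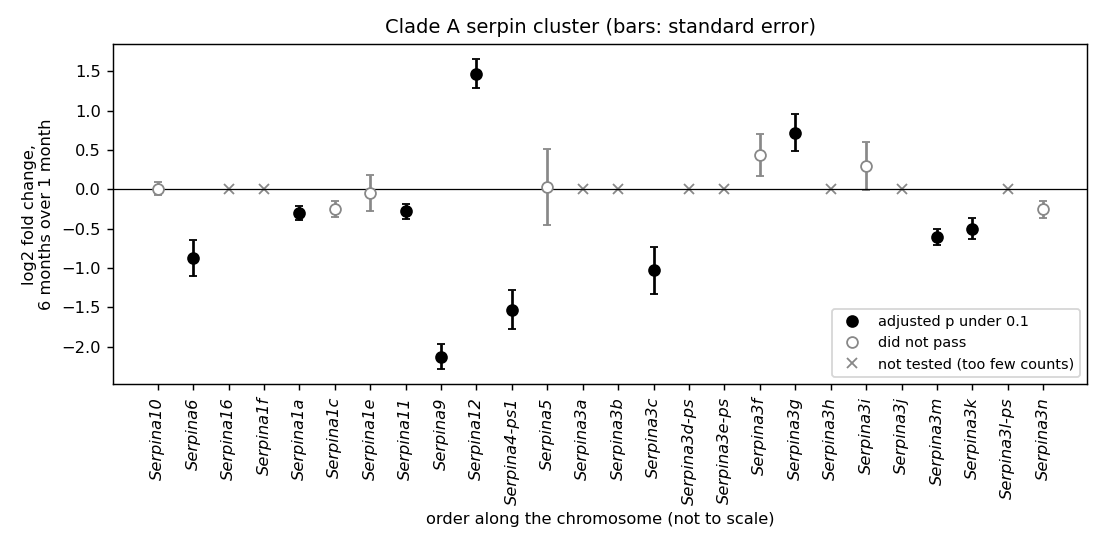
Log2 fold change of 6 months over 1 month (vertical axis, mean of the 3 age differences, bars show the standard error) of the 26 clade A serpins on chromosome 12 in their order along it (horizontal axis, not to scale). Filled points passed (2 higher, 8 lower), open points did not, and crosses at 0 are genes with too few counts to test; the adjacent Serpina9 and Serpina12 lie at -2.12 and 1.47.

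Lists of genes that work with the serpins were counted in the same way, beside the 12.1% higher and 10.5% lower of all genes tested in the mean comparison. They were counted only with the 3 low-Dbp libraries included. Of 25 coagulation and fibrinolysis genes tested, 3 were higher and 15 lower at 6 months in the mean comparison, with a median log2 fold change of -0.33. In controls 2 were lower, beside 1.06% of all genes. Hgfac, a serine protease that activates hepatocyte growth factor, fell from a median of 316 to 210.6 CPM (log2 fold change -0.71), F7 from 130 to 85.1 CPM (-0.65), F10 from 535 to 358 CPM (-0.56) and F13b from 309 to 252 CPM (-0.33). Of 11 complement and leukocyte proteases 3 were higher and 4 lower, and of 24 inhibitors outside the family 1 was higher and 6 were lower. Among the latter were Ahsg, the gene of fetuin-A, which had no overlap between the ages (10824 to 15417 CPM at 1 month, 5245 to 7040 CPM at 6 months, log2 fold change -1.12), and Fetub (-0.44). Of 14 genes for clearance or processing of serpins 1 was higher, Lrp2 (0.93), and 4 were lower, among them Vldlr (-2.06) and the cargo receptor Lman1 (-0.34). Of 18 acute phase genes 8 were higher, 1 was lower and 9 did not pass (median 0.29), the higher ones including Orm2 (log2 fold change 1.79), Saa3 (1.08), Socs3 (1.24) and Lcn2 (1.24). At day 2 alone 8 of the 18 were higher and none lower (median 0.59), beside 3.27% and 2.63% of all genes. At day 6 alone none was higher and 1 was lower (median -0.20), beside 2.61% and 1.86%. The genes named passed in the mean comparison at an adjusted p under 0.1 by edgeR's quasi-likelihood test.

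Other lists gave the setting, beside the same 12.1% higher and 10.5% lower of all genes. Clock genes had 1 higher and 1 lower of 13, hepatocyte markers 0 and 2 of 6, stellate cell markers 2 and 1 of 6, sinusoidal endothelium 0 and 4 of 6, macrophages 3 and 0 of 6 and cholangiocytes 0 and 1 of 6. The higher stellate cell markers were Dcn (log2 fold change 0.35) and Des (0.53). The lower one was Col1a1, which is also on the list of collagen partners of Serpinh1. None of the 4 neutrophil, 4 platelet and 1 exocrine pancreas markers tested passed in the mean age comparison by edgeR's quasi-likelihood test.

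After DEN few serpins passed, and at each age both days were compared with the same 2 controls. On day 2 at 1 month 1 of 32 members passed as lower and none as higher, where 0.00638% and 0.0128% of all genes tested did (0.0191% in either direction). Serpina4-ps1 was the one, with all 3 day 2 libraries (30.9 to 56.3 CPM) below both controls (168 and 373 CPM) and a log2 fold change of -2.76 (SE 0.431, adjusted p = 0.0844, edgeR's quasi-likelihood test). The call was lost in 11 of 22 alternatives, with an adjusted p of up to 0.680 without control replicate 2, and the log2 fold change was between -3.22 and -1.94 in all of them. By day 6 its level was back at 151 to 312 CPM, above every day 2 library. Day 6 against day 2 gave a log2 fold change of 2.39 (SE 0.402), which did not pass in the main edgeR fit (adjusted p = 0.180). It passed with DESeq2 (adjusted p = 1.96e-06) and in edgeR with no filter on low counts (adjusted p = 3.40e-08). Serpina7 was higher at day 2 in 3 of 3 libraries than in both controls, with a log2 fold change of 1.16 (SE 0.307). This did not pass in the main edgeR fit (adjusted p = 0.399). It passed with DESeq2 (adjusted p = 0.0448) and in edgeR with no filter on low counts (adjusted p = 0.00432). None of the other members passed, the lowest value being -0.81 for Serpina1e (SE 0.400), and 2 of the 32 had an unadjusted p under 0.05. On day 6 none of the 32 passed with edgeR or DESeq2, 1 had an unadjusted p under 0.05, and 0.0% of all genes were called.

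At 6 months Serpina3n, an acute phase relative of antichymotrypsin, was the one serpin that passed as higher after DEN in the main edgeR fit. Its levels were 327 and 357 CPM in controls, 976, 779 and 630.1 CPM at day 2 and 640.0, 558 and 618 CPM at day 6, so every library after DEN was above both controls. At 1 month the values were 501 and 710.4, then 659, 615 and 698, then 713, 764 and 634 CPM, with the day 2 libraries between the controls. The rise at day 2 at 6 months was 1.22 on the log2 scale (SE 0.194, adjusted p = 0.0130, edgeR's quasi-likelihood test), a 2.32-fold difference. Of 32 members 1 passed as higher and none as lower, where 0.242% and 0.0765% of all genes did (0.319% in either direction). The call was lost without control replicate 1 (adjusted p = 0.234), without control replicate 2 (0.169) and in a fit of the compared groups only (0.114). At day 6 the log2 fold change was 0.82 (SE 0.191), which did not pass in the main edgeR fit (adjusted p = 0.195). It passed with DESeq2 (adjusted p = 0.00436) and in edgeR with no filter on low counts (adjusted p = 0.0820). This comparison shares its controls with that between the control ages, in which Serpina3n was lower at 6 months (-0.82, SE 0.205, adjusted p = 0.0696, lost in 5 of 22 alternatives, with an adjusted p of up to 0.514 without 1-month control replicate 2), and with only 2 such controls both values rest on the same pair of low libraries. The 250 bases before Serpina3n (chr12:104406458-104406707, GRCm38.p6, plus strand), shown because it was the one member to pass as higher after DEN in the main edgeR fit, hold none of the motifs searched.
Serpina3n: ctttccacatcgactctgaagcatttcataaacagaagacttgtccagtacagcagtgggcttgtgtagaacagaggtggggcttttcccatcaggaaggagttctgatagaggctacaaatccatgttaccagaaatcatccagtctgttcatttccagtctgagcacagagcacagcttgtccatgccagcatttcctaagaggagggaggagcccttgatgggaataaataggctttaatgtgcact

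Among other inhibitors Kng2, a kininogen gene, rose at day 2 at 6 months (223.7 and 211 CPM in controls, 397, 396 and 325 CPM at day 2, log2 fold change 0.78, adjusted p = 0.0451). None of the 18 acute phase genes passed there by edgeR's quasi-likelihood test, with a median log2 fold change of 0.38. Saa1, named after its values were seen, was at 94.1 and 197 CPM in controls and 529.8, 712 and 139.9 CPM at day 2 (log2 fold change 1.66, SE 0.624, adjusted p = 0.948). Serpina3m was above both controls in 3 of 3 libraries at day 2 (209 and 179 CPM in controls, 359.9, 354 and 276 CPM at day 2). Its log2 fold change of 0.77 (SE 0.187) did not pass in the main edgeR fit (adjusted p = 0.210). It passed with DESeq2 (adjusted p = 0.0126) and in edgeR with no filter on low counts (adjusted p = 0.0705). Serpina1e was at 8728 and 10330 CPM in controls and 4338, 4225 and 4182 CPM at day 2, a log2 fold change of -1.17 (SE 0.399, adjusted p = 0.789). It passed in a fit of the compared groups only (adjusted p = 0.0259) and with no filter on low counts (adjusted p = 0.0315). Of the remaining members none passed at day 2, and none of the 32 passed at day 6 in the main edgeR fit. At day 6, 3 had an unadjusted p under 0.05, and DESeq2 and the fit with no filter each called 1. In the main edgeR fit 0.249% of all genes were called at day 6 (0.191% higher, 0.0574% lower).

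None of the 32 members passed in a direct test of day 6 against day 2 in the main edgeR fit. At 1 month 8 members had an unadjusted p under 0.05 (0.00638% of all genes passed in this fit). There DESeq2 called 2, and edgeR with no filter on low counts called 3. At 6 months 2 had an unadjusted p under 0.05 and DESeq2 called 0 (0.0128%). Nor did any response to DEN pass as different between the ages in the main fit with edgeR's quasi-likelihood test. For day 2, 3 members had an unadjusted p under 0.05 and 0.00638% of all genes were called. Serpina4-ps1 had a difference of 2.75 in log2 fold change between the ages (SE 0.618, adjusted p = 0.943) and Serpina3n of 1.099 (SE 0.264, adjusted p = 0.943). DESeq2 called these 2 members (adjusted p = 0.0156 and 0.0887), and edgeR with no filter on low counts called Serpina4-ps1 (adjusted p = 8.30e-05). For day 6, 1 member had an unadjusted p under 0.05, DESeq2 called none and 0.0128% of all genes were called.

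The RefSeq promoter table held a window for 23 of the 32 tested members. Within the 250 bases before the start, GTTAAT was found in 6 of the 23 (26.1%, all windows 6.43%), namely Serpina1a, Serpina1c, Serpina1e, Serpina3c, Serpina7 and, named after its sequence was read, Serpinb8. The first 3 of these are close copies of one another and not separate cases. TTCNNNGAA, the palindrome that STAT factors bind, was found in 5 (21.7%, all windows 7.02%), namely Serpina11, Serpinb6a, Serpina3f, Serpina3g and Serpina3i. The last 3 are relatives in the Serpina3 block and may not be separate cases. Coding sequences of Serpina3f and Serpina3g were identical at 87.4% of aligned bases. TATAAA was found in 3 (all windows 12.4%), GGGCGG in 5 (21.7%, all windows 32.7%) and the E-box CACGTG in none (all windows 6.02%). Each was searched on both strands, and a match describes the letters only. In the Serpina1 window shown above GTTAAT lies at the same place in each of the 3 copies, away from the 12 positions that differ.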

How the data were processed

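RNA of mouse liver was sequenced in 16 libraries, each a pool of 3 mice. The authors deposited raw counts per gene, with normalized values and fold changes with p-values of their own in the same table. Their processing notes name cutadapt 1.7.1l, TopHat2 2.0.13, Cufflinks 2.2.1 with Cuffnorm and DESeq2 1.10.1, and GRCm38 with Ensembl 84 genes, while these sources do not name the counting program or its strand setting. The 16 normalized columns and the authors' comparisons were not used. Of the 47729 genes 10 without numeric counts were left out. Their methods text and labels differ in the unit of the dose, and the labels' mg/kg is given here.

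Counts were fitted with edgeR 4.0.16 (limma 3.58.1, R 4.3.3; TMM scaling, filterByExpr, 6 group means, quasi-likelihood F test), with Benjamini-Hochberg adjustment over 15684 genes and a threshold of 0.1. The mean age comparison averages the age differences in controls, at day 2 and at day 6. Standard errors are of log2 fold changes. DESeq2 1.42.0, RLE size factors, no filter on low counts, only the compared groups, a replicate block, omission of the 3 low-Dbp libraries (chosen from earlier results of these data) and omission of each library in turn were the alternatives. Scripts were tested on simulated data and run in Python 3.11.15. Totals of 19039330 to 34459774 counts set the precision, and p-values measure the spread between pools.

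Members named are up to 15 that passed in any comparison, by smallest p, and a list of serpins of known role. Added to these are the 2 of highest mean CPM in each clade with tested members. The members and the lists were chosen with earlier results of these data known. Serpina1b and Serpina1d were left out by the choice of members. Promoter windows are from RefSeq (GRCm38.p6), which held 51 of the 66 member symbols. Of the members tested 1 is counted but not reported here.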

Additional observations from a re-analysis of the deposited data

How the results depend on the processing

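Of 42 results of members that passed, 22 passed under every alternative, 20 were lost under at least 1 and none reversed. For the age difference in controls 7 members passed, against 11 with no filter on low counts, 3 in a fit of the compared groups only, 3 without the 3 low-Dbp libraries and 3 to 8 with 1 library left out. At day 2 the count of 5 became 8 with DESeq2 and 8 with a replicate block, and 4 to 7 with 1 library left out. At day 6 the 9 became 4 to 9, and in the mean comparison the 19 became 14 to 21, with 1 library left out, and 13 without the 3 low-Dbp libraries. For day 2 against control at 1 month the 1 call became 2 with no filter, 2 with DESeq2, 0 with the block, 0 with the compared groups only, 0 without the 3 low-Dbp libraries and 0 to 1 with 1 library left out. At 6 months the 1 call at day 2 became 3 with no filter, 2 with DESeq2 and 0 to 1 with 1 library left out, and the compared groups only gave 1 call, of a different gene. Day 6 at 6 months went from 0 to 1 with no filter and 1 with DESeq2, day 6 against day 2 at 1 month from 0 to 3 with no filter, 2 with DESeq2 and 0 to 1 with 1 library left out, and the age difference in the day 2 response from 0 to 1 with no filter and 2 with DESeq2. The cause of these shifts was not tested, apart from the fewer samples of some fits. Between libraries of the same replicate number, deviations from the group mean had correlations of -0.302 to 0.588 (36 pairs, median 0.048). Some pairs deviated together, such as 1-month control and day 6 replicate 1 (0.543) and 6-month day 2 and day 6 replicate 3 (0.493). Others did not, such as 1-month day 2 and day 6 replicate 2 (-0.302). Whether the numbers pair the samples was not settled, because deviations of 2 controls mirror each other. The block moved the counts from 7 to 8, 5 to 8, 9 to 8 and 19 to 20 in the 4 age comparisons. Members under about 50 counts per library, such as Serpina5 and Serpini1, are limited by depth.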
